A study of Homo sapiens with 4 samples.

Results

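The matrix metalloproteinase (MMP), ADAM and ADAMTS genes were examined by RNA-seq, with 2 WT libraries and 2 from the knockout line ZCCHC4 KO1, 4 libraries in all. Both groups were untreated and labelled HepG2, a line established from a human liver tumor. ZCCHC4 KO1 was made with CRISPR/Cas9 and is the only knockout line in these libraries, and whether it grew from a single cell is not given in the sources used here, so a difference between the genotypes cannot be told apart from a difference between the lines. In bulk RNA, fewer cells of a type and less RNA per cell cannot be told apart either. Expression was given as FPKM, that is, fragment numbers divided by the length of the transcript and the size of the library, so levels can be set beside each other between genes. The members were the genes whose RefSeq symbol begins with MMP and a number, or is ADAM or ADAMTS followed by a number. Of 70 such genes, 46 of the 16658 genes in the table were members, with 17 MMP, 13 ADAM and 16 ADAMTS genes. The other 24 were not analysed here.

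These proteases belong to the metzincins, which hold a zinc ion in the active site. MMPs are secreted or anchored in the membrane and cut collagens, laminins and other matrix proteins. ADAMs sit in the membrane, where the active ones release the outer part of growth factors and receptors, a step called shedding. ADAMTS proteases are secreted, carry thrombospondin repeats and trim proteoglycans and procollagens. Most are made as inactive precursors, many of them processed by furin-like convertases, and TIMP proteins block the finished enzymes. In liver tumors the group is known for matrix remodelling and invasion.

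ADAMTS12 was the member that rose in ZCCHC4 KO1 cells. This secreted protease is known to cut cartilage oligomeric matrix protein. The other 12 members with enough signal for a test did not pass an adjusted p of 0.05, while the gelatinases MMP2 and MMP9 were near 0 in every library. Around the proteases, the inhibitors TIMP1 and TIMP3 and the convertase FURIN fell.

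Because the change of ADAMTS12 was the largest among the members, its promoter is printed beside those of ADAM15, the most expressed member, and ADAM12, which was listed at 0 in both ZCCHC4 KO1 libraries. Each line gives the 250 bases before the RefSeq start (GRCh38.p14), written 5′ to 3′ on the strand of the gene. Capitals show a match on either strand to TGANTCA, a broad form of the AP-1 motif in which N is any base. ADAMTS12 lies at chr5:33891991-33892240 (minus strand), ADAM15 at chr1:155051066-155051315 (plus strand) and ADAM12 at chr10:126388478-126388727 (minus strand).
ADAMTS12: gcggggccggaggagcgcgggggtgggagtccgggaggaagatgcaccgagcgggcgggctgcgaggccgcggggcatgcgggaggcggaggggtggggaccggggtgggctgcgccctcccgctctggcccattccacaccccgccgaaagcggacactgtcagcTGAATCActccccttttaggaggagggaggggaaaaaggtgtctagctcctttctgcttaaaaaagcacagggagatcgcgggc
ADAM15: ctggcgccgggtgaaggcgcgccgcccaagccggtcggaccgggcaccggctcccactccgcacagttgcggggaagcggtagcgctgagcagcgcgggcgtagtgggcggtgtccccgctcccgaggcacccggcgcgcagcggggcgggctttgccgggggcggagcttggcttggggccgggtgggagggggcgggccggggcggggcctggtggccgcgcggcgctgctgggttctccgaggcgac
ADAM12: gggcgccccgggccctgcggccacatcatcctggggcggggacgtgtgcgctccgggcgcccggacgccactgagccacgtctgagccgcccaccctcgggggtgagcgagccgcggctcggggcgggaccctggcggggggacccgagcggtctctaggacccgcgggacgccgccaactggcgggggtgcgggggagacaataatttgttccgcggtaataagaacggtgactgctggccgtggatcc
The windows held 68.4%, 79.6% and 73.6% G and C. The match in ADAMTS12 ran from 84 to 78 bases before the start. Windows were at hand for 7 of the tested members, and ADAMTS12 was the one with this motif. All 7 held the GC box GGGCGG and none held TATAAA. Of 29 windows of listed members, tested or not, 4 held TGANTCA, 22 GGGCGG and 4 TATAAA. Those with TGANTCA were ADAMTS12 and the untested MMP7, MMP10 and MMP20, which stayed at or below 0.09 FPKM. Of 35097 promoter windows of the same length, 6.57% held TGANTCA, 42.6% GGGCGG and 10.7% TATAAA, and of the 12918 windows of tested genes 4.16%, 64.9% and 5.67% did. A match describes the letters only, and binding was not measured.

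ZCCHC4 itself checks the labels. The 2 WT libraries had 7.22 and 5.44 FPKM of it, against 1.08 and 2.29 after knockout, without overlap (log2 fold change -1.48, standard error 0.287, adjusted p = 0.0448, limma with Benjamini-Hochberg adjustment). The call was lost without ZCCHC4 KO1 replicate 1 (log2 fold change -1.15, adjusted p = 0.0514). Of 16 hepatocyte markers, 10 were in the table and all 10 stayed under an FPKM of 1 in every library, AFP and HNF4A among them, with summed levels from 0.65 to 0.94. The defining markers of the labelled cell type were thus near 0 in these libraries. The 5 endothelial markers were also under 1. Fibroblast markers (8 of 10 in the table) summed to 148.4 and 160.6 in WT libraries against 134.4 and 120.3 after knockout, mostly from FBLN1 (108.31 to 138.31), and leukocyte markers (6 of 8) to 12.5 to 19.1, mostly from CD68 (11.71 to 16.74). Of the leukocyte markers 3 were tested and 1 fell, CSF1R, from 1.09 and 1.37 to 0.05 and 0.07 (adjusted p = 0.0248), while PTPRC stayed at or below 0.12. Of the fibroblast markers 5 were tested and 2 fell, FAP and COL3A1. Over all tested genes 4.48% were called lower. CSF1R and FAP entered the test through their WT values alone, so each had to be lower after knockout to be tested. DCN, at 0.91 and 0.82 in WT, was listed at 0 in both knockout libraries, and COL1A2 stayed at or below 0.01. Within each group the 2 libraries diverged with transcript GC content. Across 10559 genes, which are not independent replicates, the Spearman correlation of GC content with the difference of replicate 2 minus replicate 1 came to 0.720 for WT and to -0.778 for ZCCHC4 KO1.

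Genes were tested where the FPKM reached 1 in at least 2 libraries, which 13 of the 46 members did, namely 4 MMP, 6 ADAM and 3 ADAMTS genes. The remaining 33 had no test in this comparison. Fold changes below are differences of log2(FPKM + 1), ZCCHC4 KO1 minus WT, and this scale makes changes of weakly expressed genes look smaller than they are.

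ADAM genes with an active site held most of the signal. ADAM15, a membrane protease found at cell junctions, was at 86.84 and 102.18 FPKM in the WT libraries against 103.32 and 77.01 after knockout. It made up 53.5% to 65.7% of the summed FPKM of all members in a library. The groups overlapped, and the log2 fold change was -0.08 (standard error 0.185, 95% confidence interval -0.53 to 0.38, adjusted p = 0.852). ADAM9, a sheddase of growth factor precursors, was at 29.20 and 14.01 in the WT libraries against 9.62 and 16.50 after knockout. WT replicate 1 stood above the other libraries, and the log2 fold change of -0.64 (standard error 0.395, 95% confidence interval -1.62 to 0.33) had an adjusted p of 0.404. The nearest 20 tested genes on chromosome 8 were all below 0 in log2 fold change, with a median of -0.58, and 5 of them were called lower. Their part in the value of ADAM9 was not tested.

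ADAM10 and ADAM17 are the main sheddases of Notch and of tumor necrosis factor. ADAM10 was at 9.95 and 4.90 in the WT libraries against 5.18 and 8.56 after knockout. ADAM17 was at 9.29 and 7.8 in the WT libraries against 5.35 and 9 after knockout. In both genes the groups overlapped and the spread within at least 1 group exceeded the difference between the means, with log2 fold changes of -0.06 (95% confidence interval -0.97 to 0.84) and -0.26 (-0.92 to 0.41).
ADAM11 and ADAM22 lack a complete zinc-binding site and are known from the nervous system as receptors rather than proteases. ADAM11 was at 1.67 and 1.59 in the WT libraries against 3.32 and 3 after knockout, 1.94-fold higher in mean FPKM. Its groups did not overlap, yet the log2 fold change of 0.66 (standard error 0.182) had an adjusted p of 0.10. ADAM11 passed with FPKM rescaled by median ratios (adjusted p = 0.0320). It did not pass with no filter on low values (0.163) or with replicate number added to the fit as a block (0.517). ADAM22 lay between 0.75 and 1.37 in the 4 libraries, with overlapping groups.

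**Figure D1:**
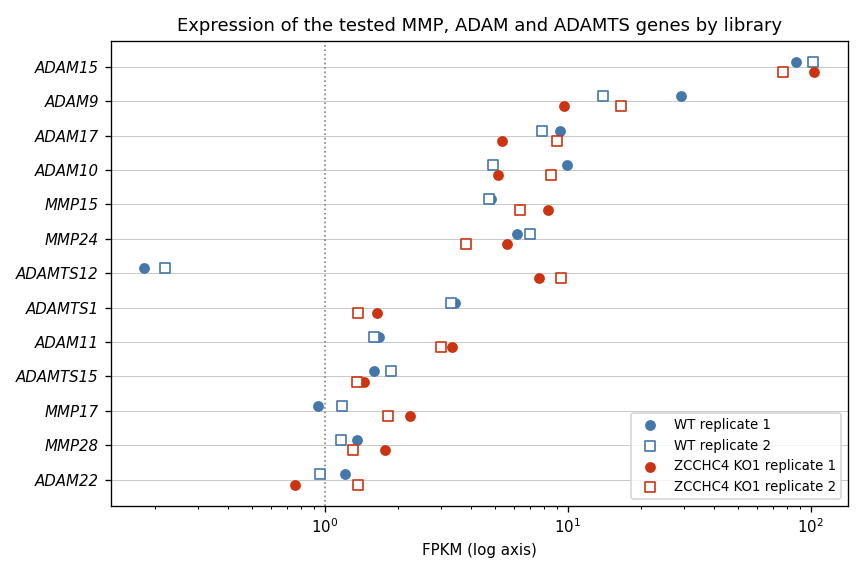
FPKM on a log axis of the 13 tested members, ordered by their mean, with 1 point per library (blue, WT; red, ZCCHC4 KO1; filled circles, replicate 1; open squares, replicate 2) and a dotted line at an FPKM of 1. Here ADAM15 lies between 77.01 and 103.32 in all libraries, and ADAMTS12 moves from 0.18 and 0.22 in WT to 7.57 and 9.36 in ZCCHC4 KO1.

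Among ADAMTS genes, ADAMTS12 was at 0.18 and 0.22 FPKM in the WT libraries against 7.57 and 9.36 after knockout. Both ZCCHC4 KO1 libraries stood far above both WT libraries, and the means of 0.20 ± 0.0283 and 8.47 ± 1.27 (SD, n = 2 each) differed 42.3-fold. The log2 fold change was 2.97 (standard error 0.197, 95% confidence interval 2.49 to 3.46, adjusted p = 0.00312), the sixth largest rise (rank 6) among 10726 tested genes. At an adjusted p below 0.05, 1.5% of the tested genes were higher and 4.48% lower, and 1 of the 13 tested members was higher and 0 lower by limma. With FPKM rescaled by median ratios, 3.93% of all tested genes were higher and 7.05% lower, with the GC trend removed 7.54% and 12.9%, and with replicate 1 of each group paired with replicate 2 of the other (crossed pairing) 21.5% and 27.8%. At an unadjusted p under 0.05 the members numbered 4 higher, ADAMTS12 among them, and 1 lower, against 8.96% and 13.9% of the tested genes. ADAMTS12 entered the test through its ZCCHC4 KO1 values alone, so it had to differ to be tested, and its call is not a share of all members. By limma it did not reach the FDR of 0.001 that the study used, which with a fold change of 2 left 2 genes higher (0.0186%) and 6 lower (0.0559%). The study reported far more genes at its thresholds and names no test for differential expression. Here the fold change was taken on the log2(FPKM + 1) scale, so the counts are not alike. ADAMTS12 lies on chromosome 5 from 33523535 to 33891990. Of the nearest 20 tested genes 8 were above and 12 below 0, with a median log2 fold change of -0.16, and none was called higher. The related ADAMTS7, which also cuts cartilage oligomeric matrix protein, was at 0.26 and 0.33 in the WT libraries against 0.25 and 0.16 after knockout.

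ADAMTS1, ADAMTS5 and ADAMTS15 cut the proteoglycans aggrecan and versican. ADAMTS1 was at 3.42 and 3.30 in the WT libraries against 1.63 and 1.37 after knockout, 2.24-fold lower in mean FPKM. The groups did not overlap, and the log2 fold change of -0.80 (standard error 0.185) had an adjusted p of 0.0676. It passed with median-ratio scaling (adjusted p = 0.0207) and with the GC trend removed from each library (0.0190). It did not pass with no filter on low values (0.125) or with the replicate block (0.336). ADAMTS5, its neighbour on chromosome 21, reached an FPKM of 1 in a single library and was not tested, with 1.02 and 0.61 in the WT libraries against 0.09 and 0.19 after knockout. The nearest 20 tested genes around ADAMTS1 had a median of -0.41 in log2 fold change, 18 of them below 0, and their part in the values of ADAMTS1 and ADAMTS5 was not tested. ADAMTS15 differed little, with 1.59 and 1.87 in the WT libraries against 1.45 and 1.35 after knockout (log2 fold change -0.18, adjusted p = 0.607).
The remaining 12 untested ADAMTS genes stayed below an FPKM of 1. They include the procollagen N-proteinases ADAMTS2, ADAMTS3 and ADAMTS14, at most 0.16, and ADAMTS13, the protease of von Willebrand factor, at most 0.09.

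MMP genes were represented by membrane-type enzymes. MMP15, a membrane-anchored collagenase relative, was at 4.82 and 4.73 FPKM in the WT libraries against 8.31 and 6.38 after knockout, and MMP17, held by a lipid anchor, was at 0.94 and 1.17 in the WT libraries against 2.23 and 1.81 after knockout. For both the ZCCHC4 KO1 libraries lay above the WT libraries. The log2 fold changes were 0.52 (standard error 0.208, adjusted p = 0.212) and 0.55 (0.187, adjusted p = 0.153). MMP24 overlaps the genes MMP24OS and MMP24-AS1-EDEM2, and whether strand was used in counting is not given in the sources used here. It had 6.15 and 6.97 in the WT libraries against 5.61 and 3.79 after knockout (log2 fold change -0.42, standard error 0.234, adjusted p = 0.352), without overlap. The secreted MMP28 was between 1.16 and 1.77 in all libraries, with overlapping groups (log2 fold change 0.16, adjusted p = 0.675).

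Of the tested members, 4 of 13 (30.8%) lay higher in both ZCCHC4 KO1 libraries than in both WT libraries and 3 of 13 (23.1%) lower. ADAMTS12, among the 4, passed the filter through its ZCCHC4 KO1 values alone, so it had to lie higher. Over all tested genes these shares were 23.1% and 28.5%, so the members' shares were near the background. The median log2 fold change was -0.06 over the 13 members and -0.03 over all tested genes. In log2 fold change 5 members were above 0 and 8 below, beside 46.8% and 53.2% of all tested genes. ADAM genes of low GC content showed the split between replicates seen in the whole table. The 4 tested members below 45% GC, namely ADAM9, ADAM10, ADAM17 and ADAM22, were all lower in replicate 2 than in replicate 1 of WT and all higher in replicate 2 of ZCCHC4 KO1. The 7 members of at least 60% GC were all lower in replicate 2 of ZCCHC4 KO1, while in WT 4 were higher and 3 lower.

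**Figure D2:**
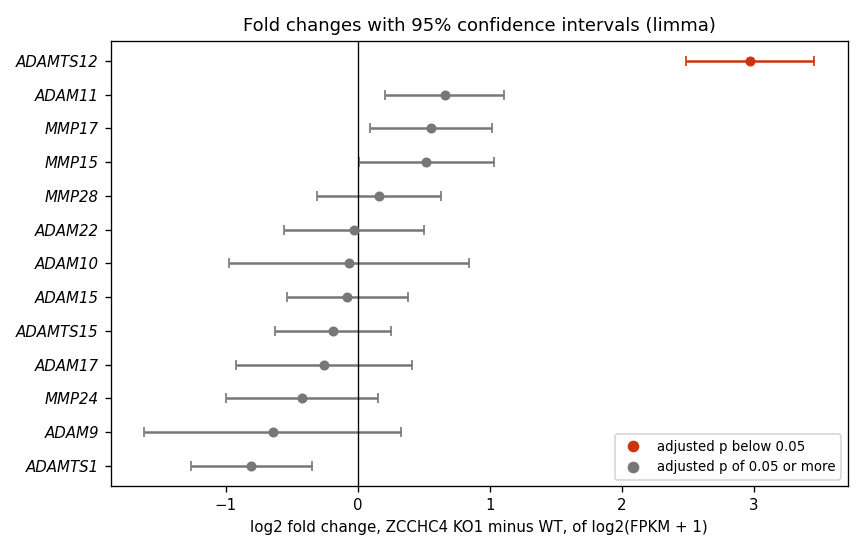
log2 fold change of the 13 tested members with 95% confidence intervals from limma (red, adjusted p below 0.05; grey, not). ADAMTS12 at 2.97 stands apart, and the next largest values are -0.80 for ADAMTS1 and 0.66 for ADAM11.

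Among the other MMP genes, none was above 0.58 in any library. MMP2 and MMP9, the gelatinases that cut basement membrane collagen, stayed at or below 0.02 and 0.09, and MMP14, the membrane enzyme known to activate MMP2, at or below 0.10. On chromosome 11, 9 protein-coding MMP genes lie side by side from 102520508 to 102955732. The 6 of them in the table (MMP3, MMP7, MMP10, MMP12, MMP13 and MMP20) stayed at or below 0.09, and 12 of their 24 values were 0. Expressed genes flank this stretch. TMEM123 before it ranged from 17.73 to 39.99 and DCUN1D5 after it from 39.35 to 49.95. Without known read depth, differences between the groups were not detectable at such levels.

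Of the 33 untested members, 17 stayed below 0.1 in every library. In 8 of the 33 (24.2%) each knockout library was lower than each WT library, and in 4 (12.1%) higher, beside 16.9% and 15.8% of the 5932 genes under the filter. ADAM12, an active protease of muscle and tumor stroma, was at 0.32 and 0.30 in WT and listed at 0 in both ZCCHC4 KO1 libraries. With no filter on low values it was the member called lower (log2 fold change -0.39, standard error 0.0303, adjusted p = 0.0262), where 0.492% of 16658 genes were higher and 1.57% lower. ADAM33 was at 0.36 and 0.55 in the WT libraries against 0.03 and 0.07 after knockout and did not pass there (adjusted p = 0.0764). MMP11, a stromelysin, was at 0.11 and 0.16 against 0.04 and 0.02 (adjusted p = 0.142). ADAM8, ADAM20, ADAM21, ADAM23 and ADAM32 stayed at or below 0.47.

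The inhibitors TIMP1 and TIMP2 were above every member in each library. TIMP1 was at 268.53 and 286.09 FPKM in the WT libraries against 130 and 107.92 after knockout, without overlap. It fell by 1.22 on the log2 scale (standard error 0.146, adjusted p = 0.0135), 2.33-fold in mean FPKM. TIMP1 lies on the short arm of chromosome X, where the nearest 20 tested genes were all below 0, with a median log2 fold change of -0.78 and 8 of them called lower, and their part in the fall of TIMP1 was not tested. TIMP3, which binds to the matrix and also blocks ADAM17, was at 19.63 and 21.49 in the WT libraries against 7.82 and 6.44 after knockout. It fell by 1.41 (standard error 0.181, adjusted p = 0.0153), 2.88-fold. Its nearest 20 tested genes on chromosome 22 had a median of -0.14, with 16 below 0 and 1 called lower. Their part in the fall of TIMP3 was not tested.
TIMP2 was at 150.28 and 153.79 in the WT libraries against 129.83 and 126.16 after knockout, a log2 fold change of -0.25 that did not pass (adjusted p = 0.297). RECK, a membrane-anchored inhibitor, was at 8.16 and 5.78 against 3.14 and 3.76 (log2 fold change -0.83, adjusted p = 0.103). RECK passed with median-ratio scaling (adjusted p = 0.0276) and with the GC trend removed (0.0290). It did not pass with no filter (0.181) or with the replicate block (0.367). TIMP4 was at 3.01 and 4.92 against 2.18 and 1.38 (adjusted p = 0.149). All 5 tested inhibitors lay lower in both ZCCHC4 KO1 libraries, 2 of them past the test, beside 28.5% and 4.48% of all tested genes, and A2M was at most 0.22.

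Upstream of the proteases, FURIN, a convertase that removes the prodomains of many of them, was at 42.89 and 45.72 in the WT libraries against 23.01 and 20.72 after knockout. It fell by 0.99 (standard error 0.142, adjusted p = 0.0203), a call that was lost without WT replicate 1 (adjusted p = 0.0545) or WT replicate 2 (0.109). The convertases PCSK6 and PCSK7 had log2 fold changes of 0.07 and -0.01. In plasminogen activation, which can start MMP cascades, PLAUR, the urokinase receptor, fell from 40.75 and 40.25 to 22.60 and 19.03 (log2 fold change -0.93, adjusted p = 0.0280). The call of PLAUR was lost without WT replicate 1 (adjusted p = 0.128), without WT replicate 2 (0.115) and with no filter (0.0581). SERPINE2, which inhibits plasminogen activators, fell from 11.72 and 11.29 to 4.13 and 4.11 (log2 fold change -1.29, adjusted p = 0.0194). Urokinase itself, PLAU, was at most 0.15. Of 5 tested genes of this list, 2 were called lower and 0 higher, beside 4.48% and 1.5% of all tested genes.

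ADAM partners that guide ADAM10 and ADAM17 to the surface gave 0 calls among 8 tested genes by limma, with 2 higher and 2 lower at an unadjusted p under 0.05. TSPAN33, among the lower, was at 1.35 and 1.82 in WT against 0.67 and 0.69. It passed the filter through its WT values alone, so it had to be lower to be tested. FRMD8, which stabilizes the iRhom complex of ADAM17, was nearest at 6.28 and 6.92 against 14.12 and 11.99 (log2 fold change 0.88, adjusted p = 0.0545), named after its values were seen. The 3 tested genes of the ADAMTS-like and papilin list gave 0 calls by limma. At an unadjusted p under 0.05, 1 was higher (ADAMTSL5) and 1 lower (PAPLN, papilin). Over all tested genes, 8.96% were higher and 13.9% lower at that unadjusted p.

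Among 20 tested shed ligands and receptors, 3 fell and 2 rose, beside 4.48% and 1.5% of all tested genes. Which of these calls held with each library left out was not followed gene by gene. CD44, the hyaluronan receptor, fell from 102.40 and 107.23 to 46.43 and 55.90 (log2 fold change -1.03, adjusted p = 0.0196). SDC1, a heparan sulfate proteoglycan, and APP, the amyloid precursor, fell by 0.94 and 0.90 on that scale (adjusted p = 0.0286 and 0.0451). JAG2, a Notch ligand, and CXCL16, a membrane-bound chemokine, rose by 0.95 and 0.92 (adjusted p = 0.0401 and 0.0286). APP lies near ADAMTS1 on chromosome 21, within the stretch described above.
Of 10 tested matrix substrates 5 were called lower and 0 higher, beside 4.48% and 1.5% of all tested genes. LAMB3, a laminin chain, fell from 15.89 and 17.8 to 6.29 and 5.52 (log2 fold change -1.37, adjusted p = 0.0167). The collagen chains COL1A1, COL3A1, COL4A1 and COL4A2 fell by 1.26, 1.18, 1.01 and 0.78 (adjusted p = 0.0235, 0.0263, 0.0422 and 0.0298). COL3A1 is on the fibroblast marker list too, where FAP, tested through its WT values alone, also fell (log2 fold change -2.30). There PDGFRB was at -0.41 (adjusted p = 0.235), LUM at 0.49 (adjusted p = 0.400) and FBLN1 at -0.15 (adjusted p = 0.608). The part of such markers in the matrix genes was not tested. VCAN, ACAN and COMP are the classical ADAMTS substrates, and VCAN and COMP were at most 0.01 and 0.02, while ACAN was not analysed here.

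Of 13 tested transcription factors of the AP-1 and ETS families, known regulators of MMP promoters, 2 rose and 1 fell. Over all tested genes these calls made up 1.5% and 4.48%. FOSL1, an AP-1 subunit, rose from 25.32 and 24.91 to 45.56 and 39.87 (log2 fold change 0.74, adjusted p = 0.0443), and ELF3, an epithelial ETS factor, from 19.76 and 21.51 to 52.86 and 44.90 (1.20, adjusted p = 0.0153). ETS2 fell from 61.59 and 61.13 to 30.56 and 33.30 (log2 fold change -0.92, adjusted p = 0.0198). FOS was at -0.47 in log2 fold change (adjusted p = 0.302) and JUN at 0.45 (adjusted p = 0.234). Among the surface partners of MMPs, BSG (EMMPRIN) had a log2 fold change of 0.36 (adjusted p = 0.300), and ITGB1, an integrin chain, fell from 166.96 and 105.30 to 32.86 and 53.94 (log2 fold change -1.63, adjusted p = 0.0410). Over all these lists, 4 of 73 tested genes (5.48%) were higher and 15 (20.5%) lower, beside the 1.5% and 4.48% of all tested genes. The lists were chosen with earlier results of these data known, so these shares describe the lists and are not a test. The median log2 fold change was -0.33 over the 73 genes. Among the called genes of these lists, only TIMP1, TIMP3, FURIN and PLAUR were followed singly with each library left out. Most of the other falls lost their call without either WT library, and which ones is not given here. The count of genes called lower was 5 without WT replicate 1 and 4 without WT replicate 2, and 1 was higher in either case, while without ZCCHC4 KO1 replicate 1 it was 2 higher.

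**Figure D3:**
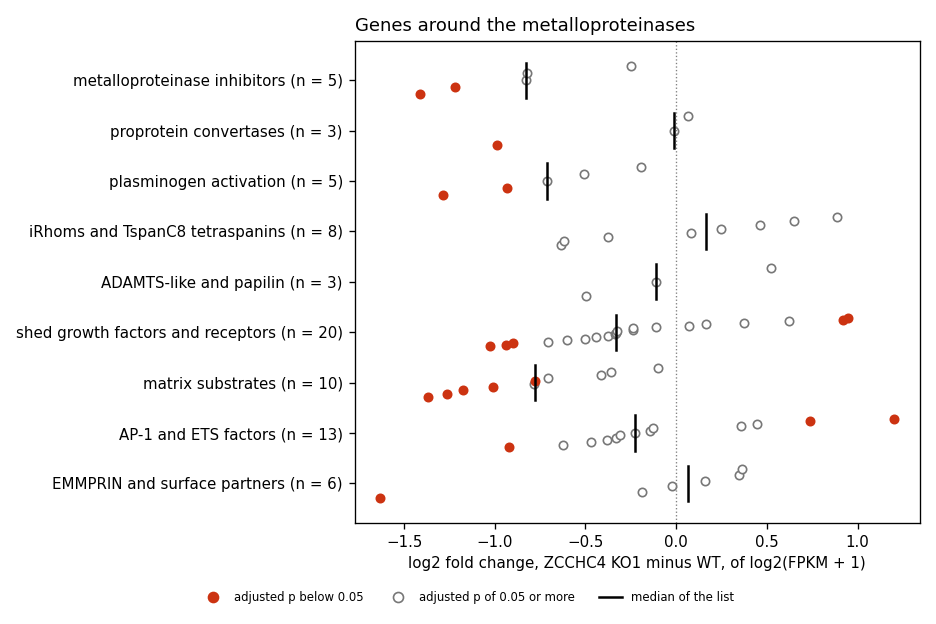
log2 fold change of the tested genes of 9 lists around the metalloproteinases, 1 point per gene (red, adjusted p below 0.05; open, not) with a bar at the median of each list. All 5 inhibitors and all 10 matrix substrates lie below 0. The matrix substrate VTN, the plasminogen activator PLAT and the tetraspanin TSPAN33 passed the filter through their WT values alone, so their signs were set by the filter. PLAT is also the median gene of the plasminogen activation list (-0.71).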

How the data were processed

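Reads had been mapped to GRCh38 by Bowtie2 and quantified by RSEM. The authors deposited gene-level FPKM in a single table, in which 0 columns were left without a sample. The study's methods name the BGISEQ-500 platform and the labels an Illumina HiSeq instrument. Software versions and annotation are not given in the sources used here. FPKM values carry no read totals, so the depth is unknown and the precision rests on 2 libraries per group. The labels do not say whether these were separate cultures, so p-values measure only the spread between the libraries, which may be technical.

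FPKM was used as deposited and log2(FPKM + 1) was tested with limma 3.58.1 in R 4.3.3 (lmFit, eBayes with a trend, Benjamini-Hochberg adjustment over all 10726 genes with an FPKM of at least 1 in at least 2 libraries). Symbols and positions came from RefSeq (GRCh38.p14), which named 16384 of 16658 genes, promoters from RefSeq, and GC content from the longest coding transcript in GENCODE v44. The script was tested on simulated data. The members and the lists were chosen with earlier results of these data known. Named were ZCCHC4, all tested members, members reaching an FPKM of 1, TIMP1 to TIMP3, RECK, FURIN, PLAU and PLAUR, and up to 5 called genes per list, and 1 further gene of this rule is not reported here. Other names were chosen after their values were seen. As alternatives the pseudocount was 0.1, the filter was dropped or raised to 5 FPKM, and the fit was repeated with quantile normalization, median-ratio scaling, eBayes without a trend, a replicate block, and each library left out. A crossed pairing and removal of the GC trend (spline, 4 degrees of freedom) were chosen after seeing the data.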

Additional observations from a re-analysis of the deposited data

How the results depend on the processing

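The rise of ADAMTS12 and the falls of TIMP1 and TIMP3 kept their direction and an adjusted p below 0.05 from limma under all 13 alternatives. Adjusted p for ADAMTS12 ran up to 0.0242, with no filter, and its log2 fold change lay between 2.84 and 4.83 (pseudocount of 0.1). At an adjusted p below 0.05, 2 members were higher with median-ratio scaling and 4 with the crossed pairing, in place of 1. In place of 0, 1 was lower with no filter, 1 with median-ratio scaling, 1 with the GC trend removed and 1 at a fold change of 2 without a test, and 3 with the crossed pairing. At the thresholds of the study 0 members were higher (4 at an unadjusted p under 0.05), but 1, ADAMTS12, with quantile normalization, median-ratio scaling, the crossed pairing, the replicate block, the GC trend removed, and without any 1 of the 4 libraries (1 to 1). With 1 library left in a group, its spread is taken to be that of the other group.

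Of the pathway genes, 4 higher and 15 lower became 1 and 8 with no filter, 14 and 41 with the crossed pairing, and 28 were lower with the GC trend removed. With the replicate block 1 was higher and 12 were lower. Leaving out 1 library gave 1 to 5 higher and 4 to 19 lower, with 1 and 5 without WT replicate 1, 1 and 4 without WT replicate 2, and 2 higher without ZCCHC4 KO1 replicate 1. The median over the tested members ran from -0.154 to 0.0716 when 1 library was left out. ZCCHC4 had -1.92 with a pseudocount of 0.1 (adjusted p = 0.0551) and -1.48 with no filter (adjusted p = 0.115), and -1.81 to -1.15 with 1 library left out. Directions reversed for members far from a call. ADAM10 was at 0.0329 with quantile normalization, ADAM22 at 0.0028 (median ratios), 0.0834 (quantiles) and 0.0641 (GC trend removed). Leaving out 1 library gave -0.511 to 0.382 for ADAM10, -0.287 to 0.132 for ADAM15, -0.584 to 0.0716 for ADAM17 and -0.246 to 0.191 for ADAM22. What caused these shifts was not tested.

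The labels do not say that a replicate number marks a shared culture or day. Differences between replicates 2 and 1 in the 2 groups correlated at -0.787 (Pearson) over genes, which are not independent replicates, and the crossed pairing was therefore added. The replicate block left 1 member higher and 0 lower at an adjusted p below 0.05. At low FPKM the unknown depth limits what can be seen.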

Other observations

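Other metzincins, chosen after their values were seen, also had measurable levels. BMP1, the procollagen C-proteinase, was at 23.28 and 24.42 FPKM in the WT libraries against 16.21 and 15.22 after knockout, without overlap (log2 fold change -0.57, standard error 0.149, adjusted p = 0.0876 from limma). Its relative TLL1 was at 13.00 and 10.61 against 8.30 and 11.51, with overlapping groups (log2 fold change -0.24, adjusted p = 0.593). PAPPA, which cuts insulin-like growth factor binding proteins, was below the filter, at 0.86 and 0.72 in the WT libraries against 0.04 and 0.07 after knockout. TLL2, MEP1B, ASTL and PAPPA2 stayed at or below 0.11.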
